A study of Homo sapiens with 18 samples.

Results

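The comparison described here asks how human neural ectoderm of anterior origin differs after 2 days in a hindbrain medium from the same ectoderm after 2 days in a forebrain medium. It uses 4 of the 18 RNA libraries of the study, 2 of cells in hindbrain medium (aNE_H) and 2 of cells in forebrain medium (aNE_T), which the study's design text calls distinct biological replicates. Genes were taken by 1 rule, a level of at least 1 TPM in at least 2 of these 4 libraries, and 14439 of the 37550 genes in the table met it. TPM is a share of a library's transcripts scaled for transcript length, so levels can be compared between genes.

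All cells were of the established human embryonic stem cell line H1, wild-type, and all 4 cultures were collected on day 4. On day 1 they had been in CDM2, a chemically defined medium, with A8301 (1 µM, a TGF-beta receptor inhibitor), trametinib (250 nM, a MEK inhibitor), C59 (1 µM, an inhibitor of WNT ligand secretion) and LDN193189 (100 nM, a BMP receptor inhibitor). On day 2 they were replated at 75000 cells per cm2 in the anterior neural ectoderm medium, with A8301 (1 µM), LDN193189 (100 nM), C59 (1 µM) and the survival aid thiazovivin (1 µM). The aNE_T cells then received a forebrain medium, which on day 3 held XAV939 (1 µM, a tankyrase inhibitor that lowers WNT signalling inside the cell), LDN193189 (100 nM) and FGF2 (20 ng/mL). What it held on day 4, and what the hindbrain medium held, is not given in the sources used here, so no difference below can be tied to 1 agent. Anterior neural ectoderm at day 2 (aNE, plated at 37500 cells per cm2) and anterior-origin cells in a midbrain medium (aNE_M) served for reference, with 2 libraries each. So did posterior-origin cells in the same forebrain and hindbrain media (pNE_T and pNE_H, plated at 150000 cells per cm2), also with 2 libraries each. All of these had the day-1 agents given above, and aNE and aNE_M also the day-2 agents. The day-2 medium of the posterior-origin cells held the retinoic acid receptor agonist TTNPB (50 nM), FGF2 (20 ng/mL) and XAV939 (1 µM). It also held A8301, LDN193189 and thiazovivin at the doses above, and C59 is not listed for it.

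The neural plate is divided along its length by signals that grade from head to tail. WNT, FGF and retinoic acid signals give cells caudal identities, and forebrain progenitors form where WNT activity is held low by secreted antagonists and by transcription factors such as SIX3 and HESX1. OTX2 marks forebrain and midbrain, GBX2 the anterior hindbrain beside the midbrain border, and HOX genes the hindbrain behind it and the spinal cord. Across the width of the plate, BMP and WNT signals at the border induce MSX1, MSX2 and PAX3, which mark the dorsal neural tube and the neural crest that leaves it.

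The 4 libraries held 13811 to 14384 genes at 1 TPM or more, and their mitochondrial genes took 2.00% to 2.52% of all TPM, within the 0.960% to 3.74% of the 18 libraries. Replicates correlated at r of at least 0.982 on log2(TPM + 1) across the genes tested, above the highest r with a library of any other group (0.961). These values are across genes, which are not independent. TPM values carry no read depth, which is therefore unknown, and p-values measure only the spread between libraries of the same group. Differences are given as hindbrain minus forebrain medium on the log2(TPM + 1) scale, which understates changes of genes at low levels. Rise and fall mean higher and lower in hindbrain than in forebrain medium, and not a change over time unless day 2 is named.

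More genes were lower than higher in hindbrain medium. By limma's test, 1127 of the 14439 genes (7.81%) had an adjusted p under 0.05 and a log2 difference of at least 1, and are called changed: 303 (2.10%) were higher and 824 (5.71%) were lower in hindbrain medium. A log2 difference of at least 2 was reached by 71 of the higher and 122 of the lower genes. The median over all genes tested was -0.07. Under quantile normalization the split was 477 higher and 645 lower, so the excess of lower calls was smaller, and that median was 0.03. Of the called genes, 93 of the higher ones were below 1 TPM in both libraries of forebrain medium and 173 of the lower ones below 1 TPM in both of hindbrain medium, and such genes entered the test only through the medium in which they were high.

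**Figure D1:**
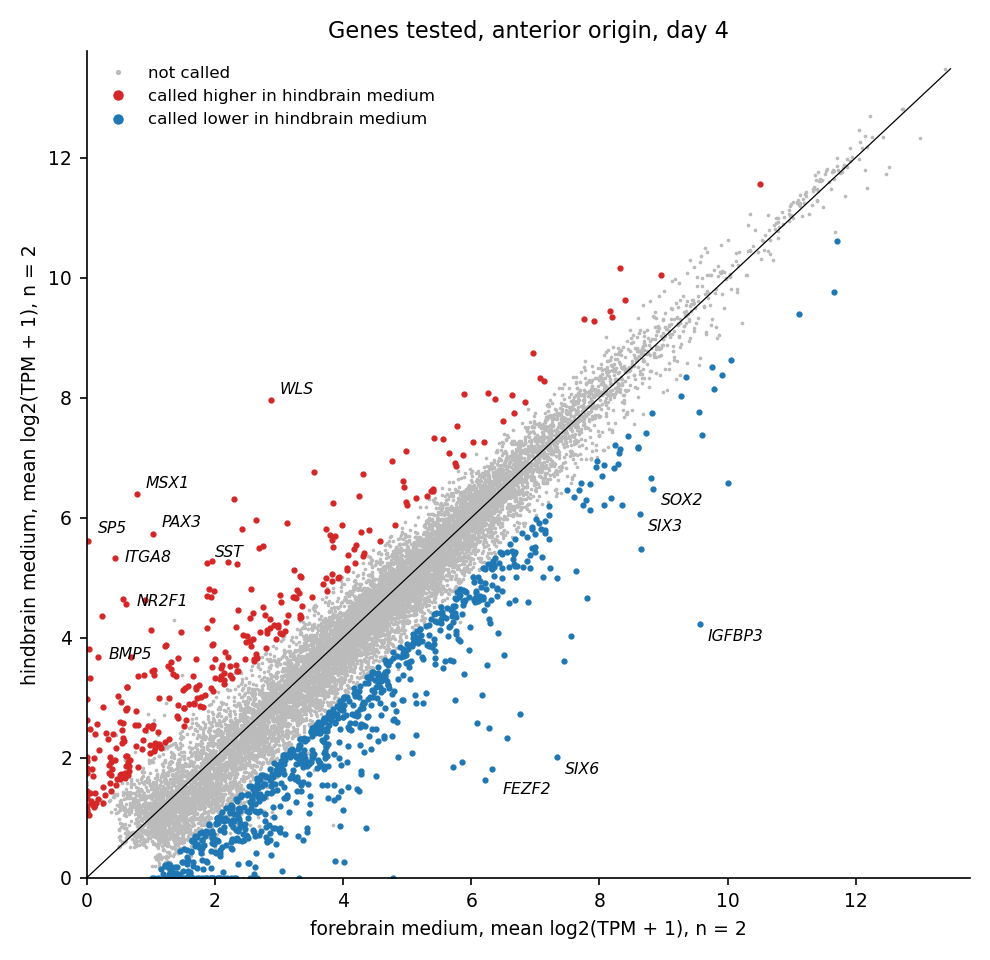
Mean expression of the 14439 genes tested in forebrain medium (x axis) and hindbrain medium (y axis), both as log2(TPM + 1) over 2 libraries. Red points are the 303 genes called higher and blue points the 824 called lower in hindbrain medium, and the line marks equal levels; WLS, MSX1 and SP5 lie far above it and IGFBP3 and SIX6 far below.

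Most of the tested transcription factors of the forebrain and eye field were lower in hindbrain medium. Of 30 listed genes 17 were tested, and 13 were called lower and 2 higher in hindbrain medium, against 5.71% and 2.10% of all genes tested. Their median log2 difference was -2.06. SIX6, a factor of the optic and hypothalamic primordium, was at 161 and 159 TPM in forebrain medium and at 2.86 and 3.20 TPM in hindbrain medium, a log2 difference of -5.32 ± 0.18 (SE, limma adjusted p = 3.4e-10). FEZF2, a factor of the rostral forebrain, was at 82.6 and 75.4 TPM against 2.25 and 2.84 TPM, a difference of -4.50 ± 0.24 (SE, adjusted p = 2.0e-08). For both genes the forebrain-medium libraries lay far above the hindbrain-medium libraries.

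Some of these factors were still well expressed in hindbrain medium, and the differences were not of 1 size. SIX3, a repressor of WNT genes in the anterior plate, remained at 73.8 and 58.1 TPM in hindbrain medium, against 414 and 380 TPM in forebrain medium (-2.58 ± 0.15, adjusted p = 4.3e-08). FEZF1 was at 32.2 and 18.4 TPM against 227 and 220 TPM (-3.15 ± 0.23, adjusted p = 4.1e-07), and LHX2, needed for eye and cortex, at 31.0 and 18.05 TPM against 101 and 102 TPM (-2.06 ± 0.32, adjusted p = 0.00024). HESX1, a pituitary and forebrain repressor, was at 4.51 and 1.95 TPM in hindbrain medium and at 27.6 and 28.5 TPM in forebrain medium (-2.85 ± 0.24, adjusted p = 1.4e-06). None of these 4 genes overlapped between media, which held for all but 1 of the 1127 called genes. LHX5 and PAX6, a factor of forebrain, eye and ventral hindbrain, were lower by -1.74 ± 0.22 and -2.06 ± 0.21. RAX, an eye field gene, was at 14.7 and 12.4 TPM in forebrain medium and at 4.75 and 0.487 TPM in hindbrain medium. Its log2 difference of -2.31 ± 0.42 (adjusted p = 0.00088) was -1.33 without aNE_H replicate 2.

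OTX2 was lower as well, at 25.2 and 27.7 TPM in hindbrain medium and at 71.0 and 62.7 TPM in forebrain medium (-1.31 ± 0.14, adjusted p = 1.3e-05). GBX2 ran the other way, from 29.3 and 30.7 TPM in forebrain medium to 91.9 and 88.0 TPM in hindbrain medium (1.55 ± 0.19, adjusted p = 4.2e-05). In mean level OTX2 exceeded GBX2 in forebrain medium and GBX2 exceeded OTX2 in hindbrain medium. The 2 members of the forebrain list called higher, both chosen after their values were seen, were DMRTA1, at 9.80 and 10.01 TPM against 0.952 and 1.11 TPM, and EMX2, at 1.10 and 1.03 TPM against 0.0558 TPM and a value listed at 0.

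At day 2 some of these factors were already high and others were low. Both media are here compared with the same day-2 libraries, so the values are given side by side and not counted together; day and plating density differ from day 2 as well. Of all genes tested, 10.3% were called in hindbrain medium against day 2 and 9.30% in forebrain medium against day 2. SIX6 was at 2.16 and 2.76 TPM at day 2. The hindbrain-medium level of SIX6 differed from day 2 by 0.22 ± 0.18 (SE, adjusted p = 0.37), whereas forebrain medium lay 5.55 above day 2. FEZF1 was at 323 and 325 TPM at day 2, LHX5 at 258 and 258 TPM and OTX2 at 203 and 214 TPM. Against day 2, hindbrain medium was lower by -3.68 for FEZF1, -3.56 for LHX5 and -2.94 for OTX2, all called, and forebrain medium by -0.53 for FEZF1 (adjusted p = 0.096), -1.82 for LHX5 and -1.63 for OTX2.

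**Figure D2:**
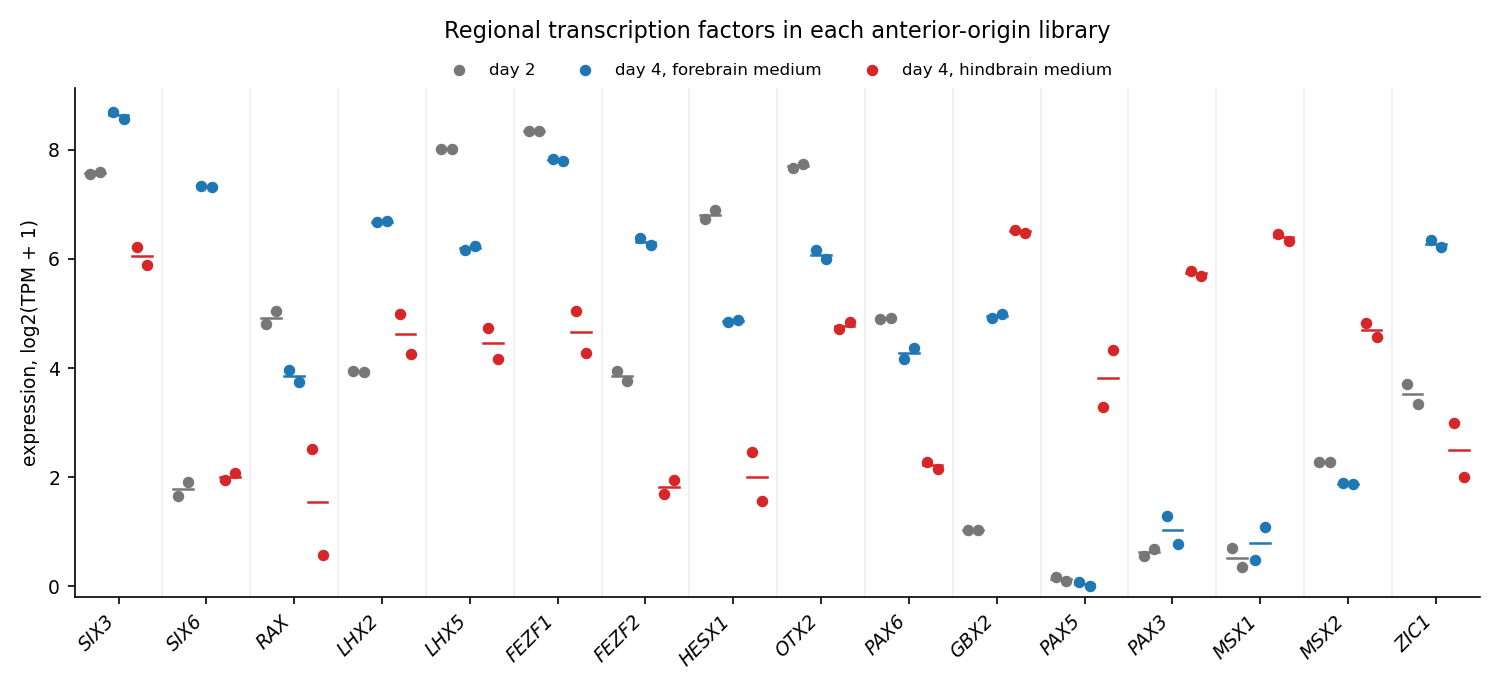
Expression, as log2(TPM + 1), of 16 regional transcription factors in each anterior-origin library at day 2 (grey), in forebrain medium (blue) and in hindbrain medium (red), with 2 points per group and a bar at their mean. From SIX3 to PAX6 the red points lie below the blue ones, and from GBX2 to MSX2 above them; ZIC1 is again lower in hindbrain medium.

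HOX genes stayed near 0. All 30 HOX genes of the 2 HOX lists stayed below 1 TPM in every anterior-origin library; in hindbrain medium 28 of them were listed at 0 in both libraries and the highest value was 0.113 TPM (HOXA6). HOXB1, HOXA2 and HOXB2, early hindbrain HOX genes, were each listed at 0 in both aNE_H libraries. In posterior-origin cells in the same hindbrain medium HOXB1 was at 347 and 312 TPM, and 12 of the 30 HOX genes reached 1 TPM in a library. The caudal gene called higher in the trunk list, NKX1-2, was at 1.34 and 1.87 TPM against 0.250 and 0.194 TPM.

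Other hindbrain genes moved in part. Of 22 listed genes 13 were tested, and 4 were called higher and 1 lower, against 2.10% and 5.71% of all genes tested. Their median log2 difference was 0.15. Besides GBX2, ZNF503, a zinc finger gene of the developing hindbrain, was at 15.3 and 11.9 TPM in hindbrain medium and 1.59 and 1.09 TPM in forebrain medium (2.64 ± 0.17, adjusted p = 1.1e-07), and FGFBP3, which encodes an FGF-binding protein, at 464 and 396 TPM against 120 and 128 TPM (1.78 ± 0.12, adjusted p = 2.1e-07). ZNF703 was the other one called higher (1.02). CASZ1, a zinc finger factor, was the gene called lower, at 3.001 and 2.97 TPM against 13.2 and 11.3 TPM (-1.73 ± 0.19, adjusted p = 1.5e-05). IRX3, a factor of caudal neural plate, was at 9.85 and 6.02 TPM against 7.56 and 6.67 TPM, overlapping between media (0.11 ± 0.21, adjusted p = 0.73). IRX1 was higher, at 10.4 and 8.40 TPM against 1.38 and 1.90 TPM (1.98 ± 0.22, adjusted p = 1.9e-05).

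Genes of the midbrain and of the isthmus, the organiser at the midbrain-hindbrain border, were called higher more often than lower. Of 9 tested 5 were called higher and 1 lower, against 2.10% and 5.71% of all genes tested, with a median of 1.17. PAX5 was at 8.77 and 19.1 TPM in hindbrain medium, against 0.0574 TPM and a value listed at 0 in forebrain medium (3.77 ± 0.35, adjusted p = 3.0e-06); with a pseudocount of 0.1 its difference was 6.70. FGF17, an FGF ligand of the isthmus, was at 7.99 and 6.02 TPM against 1.46 and 1.39 TPM (1.71 ± 0.19, adjusted p = 1.3e-05). FGF8, the FGF ligand of both the isthmus and the anterior neural ridge, was the member called lower, at 9.83 and 5.36 TPM in hindbrain medium against 77.5 and 64.9 TPM in forebrain medium (-3.12 ± 0.33, adjusted p = 1.0e-05). PAX2 was at 2.55 and 1.59 TPM against 1.73 and 1.47 TPM, which overlap (0.23 ± 0.18, adjusted p = 0.39). EN1 stayed below 1 TPM in hindbrain medium, at 0.989 and 0.749 TPM, and EN2 at 0.0775 TPM or less, whereas midbrain medium gave 141 and 128 TPM of EN1 and 18.8 and 16.6 TPM of EN2. PAX5, at 68.6 and 74.7 TPM, and FGF17, at 86.1 and 74.3 TPM, were also far higher in midbrain medium.

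Dorsal and border genes gave some of the largest rises. MSX1 was at 87.0 and 79.8 TPM in hindbrain medium and at 0.393 and 1.13 TPM in forebrain medium, a log2 difference of 5.61 ± 0.20 (SE, adjusted p = 5.1e-10). PAX3 was at 54.2 and 50.3 TPM against 1.45 and 0.715 TPM (4.70 ± 0.22, adjusted p = 6.5e-09), and MSX2 at 27.3 and 22.6 TPM against 2.71 and 2.65 TPM (2.81 ± 0.18, adjusted p = 8.4e-08). For these 3 genes the media did not overlap, as for all but 1 of the 1127 called genes. ZIC1, a dorsal zinc finger gene, was lower, at 6.93 and 3.01 TPM against 80.0 and 73.9 TPM (-3.79 ± 0.30, adjusted p = 7.1e-07). Of the 24 genes of the dorsoventral list 11 were tested. Among them 4 were called higher and 3 lower, against 2.10% and 5.71% of all genes tested.

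Of 22 neural crest genes, which include PAX3, MSX1 and MSX2, 19 were tested. Among them 9 were called higher and 1 lower, against 2.10% and 5.71% of all genes tested, with a median of 0.97. TWIST1, a crest and mesenchyme factor, was at 16.8 and 16.0 TPM against 1.24 and 0.778 TPM (3.13 ± 0.24, adjusted p = 5.4e-07), and CDH6, a cadherin of the neural folds, at 189 and 178 TPM against 56.6 and 51.1 TPM (1.75 ± 0.08, adjusted p = 5.7e-09). The crest-defining genes were low: SOX10 was at 4.96 and 3.90 TPM against 1.39 and 0.981 TPM (1.31 ± 0.21), TFAP2A at 4.30 and 2.64 TPM against 0.142 and 0.151 TPM, and FOXD3 below 0.3 TPM in all 4 libraries. NGFR, a receptor used to sort crest cells, was lower, at 29.1 and 25.5 TPM against 80.9 and 85.9 TPM (-1.58 ± 0.11). The summed level of the 22 genes was 611 to 661 TPM in hindbrain medium and 295 to 304 TPM in forebrain medium. Whether fewer or more cells of a type, or a change within each cell, lies behind such values cannot be told apart in bulk RNA.

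The listed BMP pathway genes moved 1 way where they were called, but most were not called. Of 30 listed genes 26 were tested, and 8 were called higher, against 2.10% of all genes tested. The other 18 were not called. The median was 0.16, with 15 members above 0 and 11 below. The 3 that were lower by adjusted p alone did not reach the fold threshold. BMP5, a dorsal BMP ligand, was at 12.0 and 11.7 TPM in hindbrain medium and at 0.210 and 0.0662 TPM in forebrain medium (3.50 ± 0.18, adjusted p = 1.0e-08). The secreted BMP antagonists NOG and GREM1 rose too. NOG was at 38.7 and 36.6 TPM against 2.84 and 2.94 TPM (3.31 ± 0.19, adjusted p = 3.2e-08). GREM1 was at 270 and 262 TPM against 58.8 and 58.1 TPM (2.17 ± 0.09, adjusted p = 1.7e-09). Other secreted proteins that act on BMP went the other way: SMOC1 and CER1, described elsewhere and outside this list, were called lower. Among genes that respond to BMP, ID4 was at 95.8 and 96.6 TPM against 29.7 and 29.5 TPM and ATOH8 at 25.4 and 25.3 TPM against 7.05 and 7.06 TPM. The forebrain medium held a BMP receptor inhibitor on day 3, but what the hindbrain medium held is not given. Any part of the inhibitor in these differences was not tested.

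WNT target genes formed the second group with large rises. Of 31 target and feedback genes 21 were tested, 7 called higher and 2 lower, against 2.10% and 5.71% of all genes tested. Their median was 0.72. SP5, a direct WNT target that feeds back on the pathway, was at 68.6 and 33.3 TPM in hindbrain medium, against 0.0243 TPM and a value listed at 0 in forebrain medium (5.59 ± 0.39, adjusted p = 2.4e-07), or 8.75 with a pseudocount of 0.1. LEF1, a transcription factor of the pathway and its target, was at 45.2 and 44.9 TPM against 5.39 and 6.09 TPM (2.77 ± 0.21, adjusted p = 4.4e-07). AXIN2, the negative feedback gene most used as a readout, was at 35.1 and 32.8 TPM against 7.80 and 9.09 TPM (1.89 ± 0.10, adjusted p = 1.2e-08). The feedback inhibitors NKD1 (2.28 ± 0.49), RNF43 (2.07 ± 0.19) and APCDD1 (1.29 ± 0.24) were also higher, as was DKK1 at about 1 TPM (1.11), which was named after its value was seen. APCDD1 was not called without aNE_T replicate 2 (0.94, adjusted p = 0.017). The genes called lower were LGR4, a receptor for R-spondins (-1.28), and NKD2 (-1.21), both named after their values were seen.

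In midbrain medium, from which 5.16% of all genes were called different in hindbrain medium, most of the targets named above were higher still. SP5 was at 706 and 473 TPM there, AXIN2 at 315 and 312 TPM, NKD1 at 256 and 235 TPM, LEF1 at 125 and 152 TPM and APCDD1 at 337 and 373 TPM. Hindbrain medium was below midbrain medium by -3.57 ± 0.39 for SP5, -3.17 ± 0.10 for AXIN2, -3.79 ± 0.49 for NKD1, -1.59 ± 0.21 for LEF1 and -5.58 ± 0.24 for APCDD1, all called. RNF43 was not lower in hindbrain medium, at 5.11 and 4.96 TPM in hindbrain medium and 2.94 and 2.61 TPM in midbrain medium (0.68 ± 0.19). Of the 21 tested genes of the list, 10 were called lower and 4 higher in hindbrain than in midbrain medium.

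On the secretion and reception side of the pathway genes moved in both directions. WLS, the carrier that WNT ligands need to leave the cell, was at 251 and 246 TPM in hindbrain medium and at 5.76 and 7.03 TPM in forebrain medium, a log2 difference of 5.08 ± 0.12 (SE, adjusted p = 6.0e-12). Its day-2 level was 100.01 and 88.5 TPM, and forebrain medium lay 3.69 below and hindbrain medium 1.39 above it. Of 45 ligand, receptor and antagonist genes 29 were tested, 4 called higher and 8 lower, against 2.10% and 5.71% of all genes tested. WNT4 was higher, at 7.42 and 5.92 TPM against 0.559 and 0.356 TPM (2.39 ± 0.22, adjusted p = 2.8e-06), and WNT5A, a ligand of the non-canonical branch, lower, at 4.78 and 3.62 TPM against 20.1 and 20.1 TPM (-2.03 ± 0.13). The receptors FZD5 and FZD8, known from eye field and forebrain, were at 49.7 and 37.9 TPM and at 26.8 and 19.9 TPM in hindbrain medium, against 408 and 391 TPM and 121 and 114 TPM in forebrain medium (-3.17 ± 0.14 and -2.30 ± 0.16). RSPO3, an R-spondin that strengthens WNT signals, and SFRP4, a secreted antagonist, were lower by -2.23 ± 0.22 and -2.13 ± 0.28. CER1, which blocks WNT, BMP and NODAL outside the cell, was lower too, at 2.64 and 3.38 TPM against 8.69 and 10.6 TPM (-1.41 ± 0.23).

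**Figure D3:**
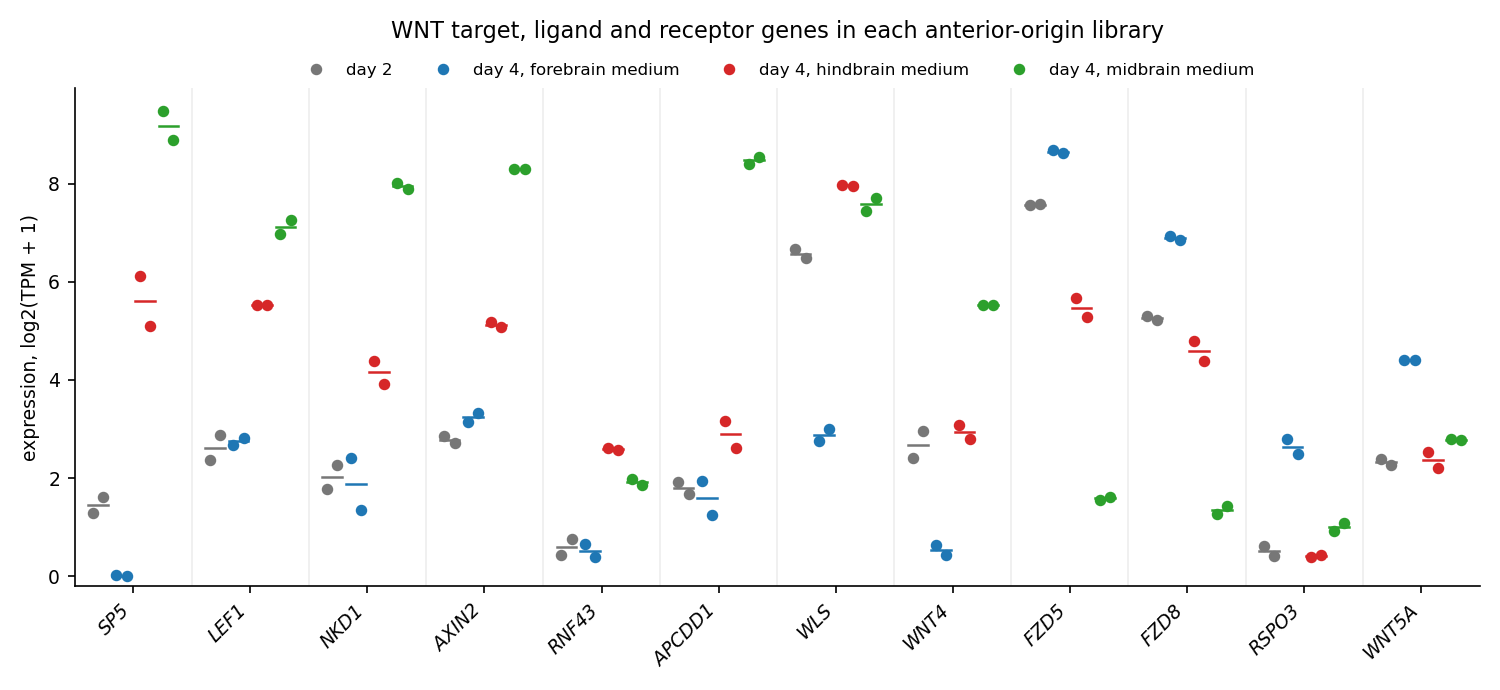
Expression, as log2(TPM + 1), of WNT targets (SP5 to APCDD1) and of secretion, ligand and receptor genes (WLS to WNT5A) in each anterior-origin library, with 2 points per group and a bar at their mean. For the plotted targets other than RNF43 the hindbrain-medium points (red) lie between those of forebrain medium (blue) and midbrain medium (green); for FZD5 and FZD8 they lie between them in the opposite order.

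The letters upstream of some of these genes are shown because SP5, NR2F1 and SIX6 hold the same short word. SP5 and NR2F1 were higher and SIX6 was lower in hindbrain than in forebrain medium. RefSeq promoters (GRCh38.p14) were matched by symbol for 104 of the 148 named genes and searched on both strands for CTTTGAT and CTTTGAA, core words of TCF/LEF binding sites, and for the DR5 element of retinoic acid receptors, a direct repeat with a spacer of 5 bases. In windows of 250 bases before to 50 bases after the start, 2.62% of all 35116 promoters held CTTTGAT and 4.43% CTTTGAA, and 0.0114% held the DR5 form found at CYP26A1. The 250 bases before the start follow, 5′ to 3′ on the plus strand, with matches on either strand in capitals. They are SP5, chr2:170715087-170715336, the first listed start of NR2F1, chr5:93582972-93583221, SIX6, chr14:60508896-60509145, and the second listed start of CYP26A1, chr10:93073643-93073892, a retinoic acid target described below.
SP5: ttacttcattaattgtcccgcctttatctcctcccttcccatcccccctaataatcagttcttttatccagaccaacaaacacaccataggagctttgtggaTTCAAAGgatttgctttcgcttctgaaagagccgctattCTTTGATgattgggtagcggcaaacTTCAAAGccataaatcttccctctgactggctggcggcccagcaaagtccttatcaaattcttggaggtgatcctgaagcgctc
NR2F1: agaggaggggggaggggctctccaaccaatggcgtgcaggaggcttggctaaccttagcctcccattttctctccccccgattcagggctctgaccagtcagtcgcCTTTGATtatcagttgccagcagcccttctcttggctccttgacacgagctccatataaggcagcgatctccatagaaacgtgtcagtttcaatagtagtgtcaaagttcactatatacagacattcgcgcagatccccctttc
SIX6: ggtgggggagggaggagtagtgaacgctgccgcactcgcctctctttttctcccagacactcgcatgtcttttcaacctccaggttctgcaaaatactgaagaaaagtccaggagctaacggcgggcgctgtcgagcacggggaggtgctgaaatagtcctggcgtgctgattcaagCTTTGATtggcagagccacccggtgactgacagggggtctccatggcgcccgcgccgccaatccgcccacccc
CYP26A1: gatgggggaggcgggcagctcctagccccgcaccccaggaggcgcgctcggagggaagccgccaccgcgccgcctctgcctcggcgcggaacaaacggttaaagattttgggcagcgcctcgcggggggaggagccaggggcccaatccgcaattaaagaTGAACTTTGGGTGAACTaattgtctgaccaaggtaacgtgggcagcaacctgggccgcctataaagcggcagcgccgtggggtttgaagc
The SP5 window has CTTTGAT once, 109 to 103 bases before the start, and CTTTGAA on the minus strand at 148 to 142 and 84 to 78 bases before it. Of the 15896 promoters of tested genes that could be matched, 1 held 3 or more such words. The NR2F1 and SIX6 windows shown each have CTTTGAT once, at 144 to 138 and 73 to 67 bases before the start. The second listed start of NR2F1, not shown, has CTTTGAT on the minus strand, 237 to 231 bases before it. CTTTGAT was in 12 of the 301 promoters (3.99%) of 198 genes called higher. It was in 15 of the 982 promoters (1.53%) of 570 genes called lower and in 1.59% of those of all tested genes. Genes with several starts, such as NR2F1, count more than once. For CTTTGAA these shares were 2.66%, 2.55% and 2.72%. A match is a description of letters, not of binding.

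Retinoid genes were called higher or not called. Of 27 listed genes 15 were tested, 6 called higher, against 2.10% of all genes tested. The 4 that were lower by adjusted p alone did not reach the fold threshold, and the median was 0.67. NR2F1, a nuclear receptor induced by retinoic acid, was at 23.3 and 22.2 TPM in hindbrain medium and at 0.659 and 0.422 TPM in forebrain medium (3.95 ± 0.17, adjusted p = 2.6e-09), and its relative NR2F2 at 59.7 and 47.6 TPM against 19.2 and 17.6 TPM (1.49 ± 0.23). STRA6, a transporter that takes up retinol, was at 109 and 105 TPM against 10.7 and 10.8 TPM (3.20 ± 0.12, adjusted p = 6.2e-10), and RDH10, a retinol dehydrogenase, at 19.4 and 9.69 TPM against 2.88 and 2.92 TPM (1.92 ± 0.23). CYP1B1, an enzyme that can oxidise retinol, and NRIP1, a receptor corepressor, were higher by 2.57 ± 0.23 and 1.38 ± 0.11. The genes most used as retinoic acid readouts did not rise. CYP26A1, which degrades retinoic acid, was at 2.49 and 2.62 TPM in hindbrain medium and at 3.57 and 4.63 TPM in forebrain medium (-0.51 ± 0.17, adjusted p = 0.037, short of the fold threshold), down from 219 and 223 TPM at day 2. The window of CYP26A1 shown above has a DR5 element on the minus strand, 90 to 74 bases before the start. The first listed start of CYP26A1, not shown, has none of the words searched for in the bases before it. RARB was below 0.8 TPM and CYP26B1 below 0.3 TPM in all 4 libraries.

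FGF response genes gave calls in both directions. Of 27 listed genes 26 were tested, and 1 was called higher and 4 lower, against 2.10% and 5.71% of all genes tested. SPRY4, a feedback inhibitor, was at 203 and 188 TPM in hindbrain medium and 88.2 and 90.6 TPM in forebrain medium (1.12 ± 0.10, adjusted p = 3.0e-06). DUSP6, the ERK phosphatase, was at 337 and 352 TPM against 277 and 272 TPM (0.33 ± 0.08, adjusted p = 0.0050), and ETV4 at 70.8 and 65.2 TPM against 52.2 and 55.4 TPM (0.33 ± 0.11); neither reached the fold threshold. ETV5 overlapped between media, at 86.5 and 80.9 TPM against 85.1 and 87.4 TPM (-0.04 ± 0.11), with a sign that turned under median-ratio scaling and without aNE_H replicate 2. Against day 2, at 29.3 and 33.6 TPM, DUSP6 was higher by 3.41 in hindbrain medium and by 3.09 in forebrain medium. The genes called lower were EGR1 (-2.22 ± 0.17), an immediate early gene, SHISA2 (-2.49 ± 0.13), which holds back FGF and WNT receptors, IER3 (-1.49 ± 0.11) and LIF (-1.26 ± 0.22). Among 17 tested ligands and receptors 5 were called higher and 3 lower: FGFR4 was at 24.4 and 20.1 TPM against 9.75 and 8.85 TPM (1.17 ± 0.11), FGFR1 at 225 and 201 TPM against 454 and 446 TPM (-1.08 ± 0.09), and FGF12, an intracellular member of the family, at 14.6 and 12.8 TPM against 0.680 and 2.31 TPM (2.64 ± 0.37).

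The Hedgehog readouts PTCH1 and GLI1 were not called, whereas several other genes of the pathway were. PTCH1 and GLI1 differed by little (0.24 ± 0.12, adjusted p = 0.14, and 0.49 ± 0.46, adjusted p = 0.45). GLI1 overlapped between media, at 4.08 and 1.35 TPM against 1.65 and 1.27 TPM, and its sign turned without aNE_H replicate 1. Of the surface proteins that bind the ligand, HHIP, a decoy receptor, was higher, at 29.3 and 25.1 TPM against 3.15 and 2.41 TPM (2.90 ± 0.25, adjusted p = 1.4e-06). The coreceptors BOC, at 168 and 152 TPM against 41.2 and 42.7 TPM (1.91 ± 0.14), and CDON (1.21 ± 0.12) were higher, and the coreceptor GAS1 was lower, at 16.4 and 13.2 TPM against 54.4 and 54.8 TPM (-1.83 ± 0.14, adjusted p = 4.0e-07). In all, 3 of 10 tested genes were called higher and 1 lower, against 2.10% and 5.71% of all genes tested.

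Notch genes were lower where they were called, apart from ID4, which the list shares with the BMP list. Of 20 tested genes 4 were called lower and 1 higher, against 5.71% and 2.10% of all genes tested. By adjusted p alone 12 were lower and 3 higher, against 19.5% lower and 13.3% higher of all genes. DLL1, the ligand that newborn neuron precursors present, was at 2.87 and 2.37 TPM in hindbrain medium and 55.8 and 47.2 TPM in forebrain medium (-3.86 ± 0.35, adjusted p = 2.4e-06). HES1, a Notch target, was at 35.5 and 35.6 TPM against 104 and 98.7 TPM (-1.49 ± 0.10, adjusted p = 2.1e-07), and NOTCH2 at 60.1 and 49.3 TPM against 145 and 137 TPM (-1.35 ± 0.12). HES5 was listed at 0 in both hindbrain-medium libraries and at 1.25 and 1.09 TPM in forebrain medium. It was called (-1.12), but under quantile normalization its difference of -0.74 fell short of the fold threshold.

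Most markers of the labelled cell type were present, and more of them were lower than higher in hindbrain medium. All 24 neural progenitor genes were tested, and 22 were at 1 TPM or more in both hindbrain-medium libraries, while 1 was listed at 0 in both. In hindbrain medium 12 were called lower and 4 higher, against 5.71% and 2.10% of all genes tested, with a median of -0.91. SOX2, the core factor of neural progenitors, was at 97.7 and 79.8 TPM against 457 and 453 TPM in forebrain medium and 289 and 297 TPM at day 2 (-2.35 ± 0.11 between media, adjusted p = 6.5e-09). SOX3 (-2.11 ± 0.19), SOX21 (-2.06 ± 0.20) and SOX1, at 0.727 and 0.395 TPM against 4.95 and 4.10 TPM (-1.83 ± 0.21), fell with it, as did NCAM1 (-2.22 ± 0.19). NES, an intermediate filament of progenitors, remained high at 271 and 247 TPM against 633 and 597 TPM, and CDH2, the neural cadherin, at 152 and 141 TPM against 297 and 304 TPM (-1.03 ± 0.10). CDH2 fell just short of the fold threshold under median-ratio scaling (-0.97) and without aNE_H replicate 2 (-0.98). PLAGL1, an imprinted zinc finger gene of progenitors, was among those called higher, at 35.5 and 37.7 TPM against 5.27 and 3.10 TPM (2.89 ± 0.17, adjusted p = 4.7e-08). The summed level of the 24 genes was 2203 to 2484 TPM in hindbrain medium and 2953 to 3074 TPM in forebrain medium.

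Defining markers of other cell types were low in both media, while the summed levels of 3 lists differed. POU5F1 was at 2.14 and 3.40 TPM in hindbrain medium and 2.66 and 3.57 TPM in forebrain medium, where its pseudogenes make the value uncertain, and NANOG was below 0.5 TPM in all 4 libraries. The sign of the POU5F1 difference (-0.14) turned under quantile normalization and without aNE_T replicate 2 or aNE_H replicate 1. The 19 pluripotency genes in the table summed to 1575 to 1661 TPM against 1134 to 1138 TPM. Of 9 tested members 2 were called higher and 0 lower, against 2.10% and 5.71% of all genes tested. ZFP42, a small part of that sum, was called higher, at 27.6 and 26.3 TPM against 5.13 and 4.72 TPM (2.24 ± 0.10). The members that carry most of the sum are not named here. TP63 and KRT5, of surface ectoderm, were below 0.5 TPM in every one of the 4 libraries, GATA3 was at 3.79 to 4.63 TPM and not called, and the 29 listed genes summed to 1491 to 1614 TPM against 823 to 843 TPM. KRT8 and KRT18, keratins of simple epithelia that pluripotent cells also make, carried most of that sum, at 670 and 631 TPM against 297 and 289 TPM (1.15 ± 0.08) and at 723 and 669 TPM against 283 and 287 TPM (1.28 ± 0.08). The mesendoderm genes SOX17, MIXL1 and TBXT were below 0.5 TPM, with 26 genes summing to 30.5 to 37.3 TPM against 44.2 to 45.001 TPM. Their part in the other results was not tested.

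Neuronal genes gave no common direction. STMN2 and ELAVL4, of postmitotic neurons, were below 0.6 TPM in all 4 libraries, and TUBB3 was at 180 and 164 TPM against 184 and 165 TPM. Of 29 listed genes 12 were tested, 5 called higher and 2 lower, against 2.10% and 5.71% of all genes tested. SST, which encodes somatostatin, was at 39.8 and 34.4 TPM in hindbrain medium and 2.40 and 2.94 TPM in forebrain medium (3.37 ± 0.19, adjusted p = 3.9e-08), and was listed at 0 in both day-2 libraries. The neurofilament gene NEFM (1.92 ± 0.12) and the growth cone gene GAP43, at 55.3 and 60.2 TPM against 14.9 and 14.7 TPM (1.89 ± 0.12), were also higher.

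The largest rises and falls named by rank include genes outside these lists. Of the 15 largest falls, the first was IGFBP3, a secreted binding protein of insulin-like growth factors, at 16.8 and 18.8 TPM in hindbrain medium against 745 and 769 TPM in forebrain medium (-5.33 ± 0.11, adjusted p = 3.1e-12). At day 2 it was at 20.3 and 19.6 TPM, and hindbrain medium minus day 2 was -0.16 (adjusted p = 0.31). SLC15A3, a peptide and histidine transporter (-4.58 ± 0.15), PDGFB, a growth factor (-4.21 ± 0.29), SMOC1, an extracellular BMP modulator (-4.03 ± 0.18), and GPR176, an orphan receptor (-3.83 ± 0.09), followed. GADD45G, RIPPLY3, STOML3, MYL7 and ACTA1 had differences of -3.52 to -3.75, and ACTA1 shares sequence with other actins and its value is uncertain. Of the 15 largest rises, ITGA8, an integrin subunit, was at 41.0 and 37.8 TPM against 0.382 and 0.324 TPM (4.90 ± 0.14, adjusted p = 8.4e-11), and DLC1, a GTPase-activating protein, at 91.3 and 67.0 TPM against 2.94 and 5.15 TPM (4.01 ± 0.19). TMEM132C (4.13), MUSTN1 (4.07), TNFRSF11B, the decoy receptor osteoprotegerin (3.73), and LGI1, a secreted synaptic protein (3.39), completed them.

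More matrix and guidance genes were called lower than higher, as were more of all genes tested (5.71% lower and 2.10% higher). Of 40 tested matrix and integrin genes 7 were called lower and 2 higher, and by adjusted p alone 25 were lower and 2 higher, against 19.5% and 13.3% of all genes tested. ITGA3 (-2.08 ± 0.13), COL5A2 (-1.95 ± 0.15) and LAMA5 (-1.19 ± 0.17) were lower, and COL1A2 was the gene called higher beside ITGA8, at 160 and 156 TPM against 47.1 and 45.4 TPM (1.75 ± 0.10). Without aNE_H replicate 2 the number of lower calls was 4, and LAMA5 was at -0.97. Among 40 tested guidance genes 7 were called lower and 4 higher. SEMA6D, a transmembrane semaphorin (-2.04 ± 0.23), NTN4 (-1.90 ± 0.26) and ROBO1 (-1.26 ± 0.14; -0.99 without aNE_H replicate 2) fell, whereas SLIT2, a ligand of ROBO1, was at 26.3 and 23.0 TPM against 8.35 and 8.39 TPM (1.45 ± 0.11).

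Most genes of lipid synthesis were higher by small amounts. Of 32 tested genes of cholesterol and fatty acid synthesis 3 were called higher, but 28 were higher by adjusted p alone, against 13.3% of all genes, with a median of 0.63. SCD, the stearoyl-CoA desaturase, was at 823 and 749 TPM in hindbrain medium and 332 and 338 TPM in forebrain medium (1.23 ± 0.09, adjusted p = 2.7e-07), beside 765 and 726 TPM at day 2. Of 29 glycolysis and hypoxia genes 5 were called higher and 2 lower, against 2.10% and 5.71% of all genes tested. The glucose transporter SLC2A1 was at 1187 and 1097 TPM against 303 and 332 TPM (1.84 ± 0.11, adjusted p = 5.8e-08). LDHA was at 143 and 126 TPM against 52.6 and 46.2 TPM (1.43 ± 0.12), whereas ADM, a peptide induced by low oxygen, was lower (-1.65 ± 0.11). Of 33 tested cell cycle genes 1 was called higher and 1 lower, close to those shares of all genes tested. The higher one was the proto-oncogene MYCN, at 130.1 and 114 TPM against 25.2 and 26.9 TPM (2.18 ± 0.10, adjusted p = 6.5e-09). The lower one was the inhibitor CDKN1C (-1.67 ± 0.14). Of 24 stress genes 1 was called higher and 1 lower, again close to those shares. They were GDF15 (1.24 ± 0.18) and BBC3 (-1.08 ± 0.15, or -0.998 without aNE_T replicate 2).

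**Figure D4:**
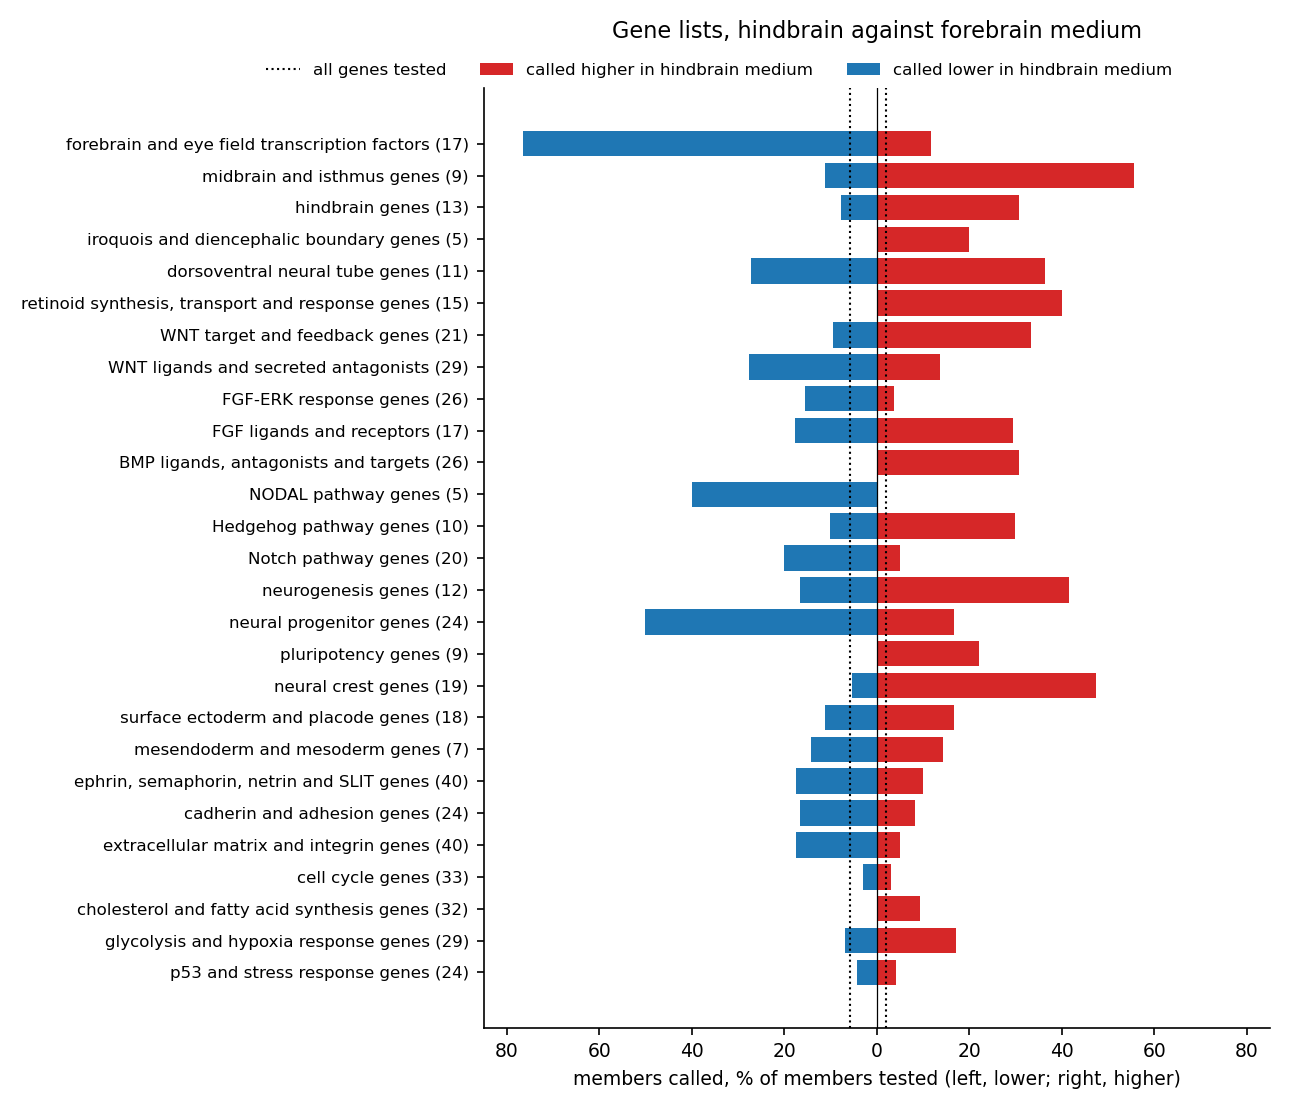
Members called in hindbrain against forebrain medium, for gene lists with at least 5 members tested, as a percentage of the members tested (number in brackets), with calls of lower genes to the left and of higher genes to the right. Dotted lines mark 5.71% and 2.10%, the shares of all 14439 genes tested; forebrain factors and neural progenitor genes reach furthest left, and midbrain and isthmus and neural crest genes furthest right, among the lists drawn.

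The same change of medium in posterior-origin cells shares no library with the anterior comparison. It gave 704 called genes (4.88%), 196 higher (1.36%) and 508 lower (3.52%), or 256 and 408 under quantile normalization. The genes tested were still those kept by their levels in aNE_H and aNE_T, which leaves out genes found only in posterior-origin cells. With a filter at 1 TPM in 2 of the 18 libraries, 857 genes were called in the posterior origin, 281 higher and 576 lower. The anterior count was then 1125 and that of the interaction described below 915. Among the 14439 genes tested, both origins had the same call for 279, which is 24.8% of the anterior and 39.6% of the posterior calls. Calls were opposite for 26. Of the 279 shared calls 62 were higher and 217 lower. MSX2 (2.81 and 2.85 in the anterior and posterior origins), LEF1 (2.77 and 2.38), RNF43 (2.07 and 2.10), STRA6 (3.20 and 2.09), PAX6 (-2.06 and -2.46) and FEZF2 (-4.50 and -3.42) were among the shared calls. For MSX2 the difference between origins was -0.03 ± 0.25 (SE) and for FEZF2 -1.08 ± 0.34 (adjusted p = 0.055).

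The difference between origins was tested as an interaction, and 794 genes (5.50%) were called: 318 (2.20%) had a larger and 476 (3.30%) a smaller hindbrain-minus-forebrain difference in the anterior origin. Plating density is equal within an origin and differs between origins, so origin and density cannot be told apart here. NR2F1 rose in hindbrain medium from the anterior origin and fell from the posterior one, where it was at 18.1 and 15.04 TPM in hindbrain medium and 57.7 and 64.0 TPM in forebrain medium (interaction 5.77 ± 0.24, adjusted p = 8.3e-09). SP5 was below 0.2 TPM in all 4 posterior-origin libraries of these media (interaction 5.55 ± 0.55, adjusted p = 2.2e-05). WLS was at 204 and 234 TPM in posterior-origin cells in hindbrain medium and at 162 and 139 TPM in forebrain medium, so that the interaction was 4.54 ± 0.17 (adjusted p = 8.3e-09). ZIC1 (-3.49 ± 0.42) fell further in the anterior origin, and from the posterior origin it stayed below 2 TPM in both media. SOX10 rose more from the posterior origin, to 16.2 and 12.7 TPM against 0.394 and 0.809 TPM (interaction -1.96 ± 0.30, adjusted p = 0.00065). Of the 17 tested forebrain factors 4 were called lower in the posterior comparison, against 3.52% of all genes tested. The interaction was called negative for 9 and positive for 1 of them, against 3.30% and 2.20% of all genes tested.

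**Figure D5:**
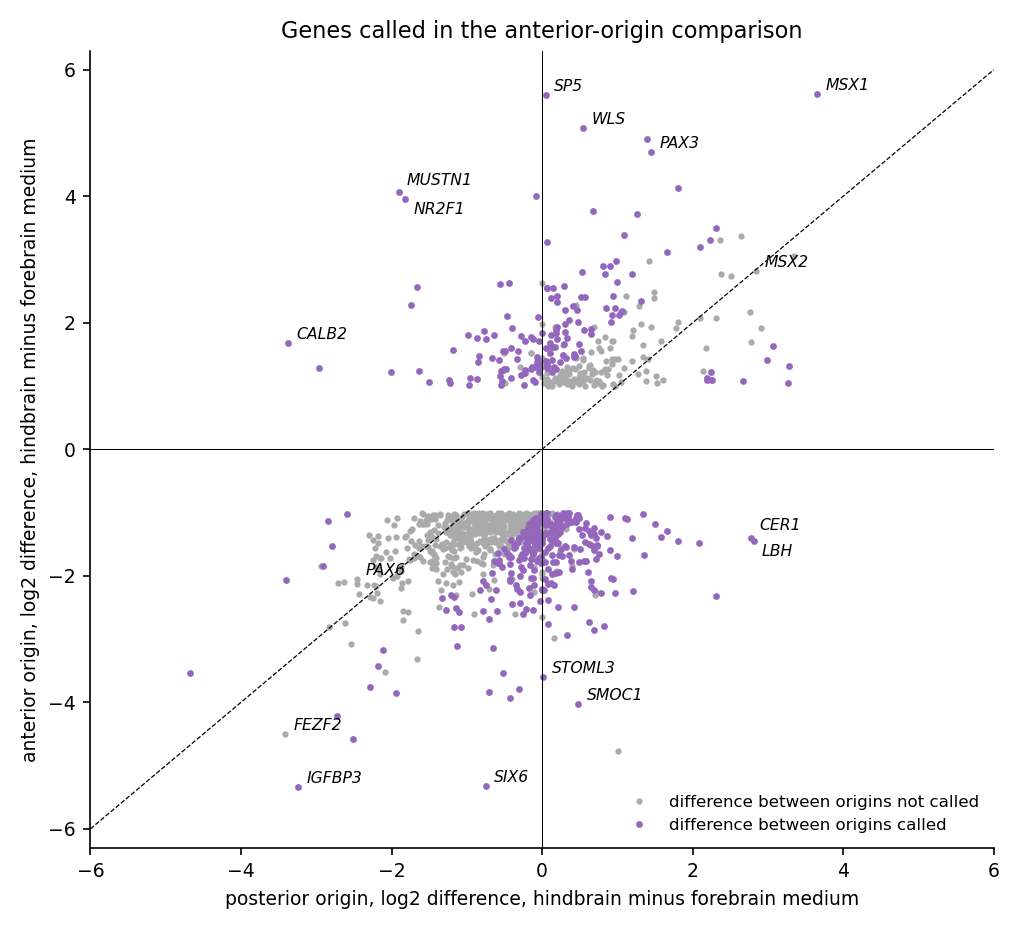
Log2 difference between hindbrain and forebrain medium for the 1127 genes called in the anterior origin, in posterior-origin cells (x axis) and in anterior-origin cells (y axis). Purple points are genes whose difference between origins was called, and the dashed line marks equal differences; MSX2 and PAX6 lie near it, whereas SP5 and SIX6 lie near the vertical axis and NR2F1, MUSTN1 and CALB2 to its left at positive anterior values.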

How the data were processed

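Poly(A)-selected RNA of 18 cultures in 9 groups was measured, and the values used are TPM per gene as the authors deposited them in 1 table. Per the submitters' processing notes, bcl2fastq, FastQC, Trim Galore, kallisto and deepTools were used with the hg38 build; their roles and versions are not given in the sources used here. TPM keeps no read depth, so no counting error can be given.

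Values were converted to log2(TPM + 1), with a pseudocount of 1. Genes at 1 TPM or more in at least 2 of the 4 libraries of aNE_H and aNE_T were kept, and this set was used for every comparison. One limma model (limma 3.58.1, R 4.3.3) gave each of the 9 groups its own mean over all 18 libraries, which left 9 degrees of freedom for the spread, and used a trended prior. A gene is called when its Benjamini-Hochberg adjusted p over the 14439 genes tested is under 0.05 and its log2 difference is at least 1 in size; every adjusted p in the text is from limma. An exact permutation test of 2 against 2 libraries cannot go below 0.333. The scripts were tested on simulated data.

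Named genes are the 15 largest rises and the 15 largest falls among called genes with a mean of at least 5 TPM in the higher group. Added to them are up to 6 called genes of each of 29 lists and a set of regional, pathway and marker genes. The 5 largest differences between origins in each direction were taken from genes called in both the anterior comparison and the interaction. DMRTA1, EMX2, NKX1-2, ZNF703, DKK1, LGR4, NKD2, NES, SOX10, TFAP2A and the markers given to define other cell types fall outside that rule and were named after their values were seen. The members, lists and tests were chosen with earlier results of these data known. Alternatives were another pseudocount, other filters, median-ratio and quantile scaling, a fit of only the libraries compared, a replicate block, the call by adjusted p alone and leaving out each replicate; those for hindbrain against midbrain medium were chosen after seeing the data. Some genes that the rule names are not reported here.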

Additional observations from a re-analysis of the deposited data

Results flagged for a closer look

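The 10 genes named here by rule have the largest interactions in each direction among genes called in both the anterior comparison and the interaction. Their passing limma's interaction test was fixed by that choice and is no further support. Among genes that met the rule, the interaction, anterior minus posterior, was largest for MUSTN1 at 5.98, NR2F1 at 5.77, SP5 at 5.55, CALB2, a calcium-binding protein, at 5.05 and WLS at 4.54. It was most negative for SIX6 at -4.57, SMOC1 at -4.51, LBH at -4.26, CER1 at -4.18 and STOML3 at -3.62. MUSTN1, NR2F1 and CALB2 were called higher in hindbrain medium from the anterior origin and lower from the posterior one, and CER1 and LBH the reverse. SP5, WLS, SIX6, SMOC1 and STOML3 were called only in the anterior comparison. Plating density differs between the origins and cannot be told apart from origin.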

How the results depend on the processing

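With the call by adjusted p alone, 4732 genes passed between media in the anterior origin (1921 higher and 2811 lower) against 1127, 2914 in the posterior origin against 704, 1864 for the interaction against 794, 4966 for hindbrain medium against day 2 (1485), 4931 for forebrain medium against day 2 (1343) and 2332 for hindbrain against midbrain medium (745). Quantile normalization gave 477 higher genes against 303, and a filter at 5 TPM gave 938 calls for hindbrain medium against day 2. Leaving out 1 replicate gave 1053 to 1205 anterior calls, 291 to 327 of them higher and 734 to 914 lower, 717 to 733 posterior calls, 668 to 775 for the interaction, 1431 to 1590 and 1277 to 1383 against day 2 for hindbrain and forebrain medium, and 683 to 788 for hindbrain against midbrain medium. The sign turned for ETV5 (0.019 under median-ratio scaling, and -0.092 to 0.0036 when 1 replicate was left out), GLI1 (-0.062 to 1.05 when 1 was left out), IRX3 (-0.21 to 0.42), PAX2 (-0.00093 to 0.45) and POU5F1 (0.088 under quantile normalization, and -0.38 to 0.10 when 1 was left out, above 0 without aNE_T replicate 2 or aNE_H replicate 1). The lowest value of GLI1, IRX3 and PAX2 was without aNE_H replicate 1, and the highest of ETV5 without aNE_H replicate 2; none of these genes was called, and the cause was not tested. Of 130 named genes that were called, 121 kept the call in every alternative that tested them. Replicate numbers share only a number: with a replicate block 1132 genes were called between media in the anterior origin, and same-numbered aNE_T and aNE_H libraries deviated together with r = -0.02. TPM gives no depth, so values near 0 are the least certain.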
